A study of Mus musculus with 8 samples.

Results

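The data describe 1230 tag clusters of E14 mouse embryonic stem cells whose dominant transcription start site (TSS) lay more than 10 kb from every annotated gene on either strand. They were 1230 of the 32742 clusters of E14 off the mitochondrial chromosome, or 3.76% (95% Wilson interval 3.56 to 3.97). The same rule gave 1261 of 32889 clusters (3.83%) in clone A1 and 1214 of 32754 (3.71%) in clone C7, which are single clones of E14 cells with double knockout (DKO) of Pwwp2a and Pwwp2b. Genes were those of GENCODE M21 on GRCm38, the assembly behind mm10. Here these clusters are called distal clusters.

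Cap analysis of gene expression (CAGE-seq) was made from nuclear RNA of 3 E14, 2 A1 and 3 C7 libraries, with no PCR step, from cells grown with LIF and serum. The authors merged the libraries of each line before calling tag clusters, which are runs of neighbouring TSSs on 1 strand. The merged sets give positions and no level: the score was 0 in each of the 98732 cluster records, so the depth behind a cluster is unknown. By the study's mapping summary E14 was the most deeply read line and A1 the least, so presence in 1 line and absence from another cannot be told apart from depth.

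CAGE reads the capped 5' end of an RNA at base resolution. Besides promoters, active enhancers are transcribed by RNA polymerase II, often from a pair of start sites that point away from each other on opposite strands, and give short unstable enhancer RNAs (eRNAs). Such RNAs are found mainly in the nucleus. A start site far from genes can also belong to a long noncoding RNA, to an unannotated gene or to a transposable element, and positions do not say which.

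The labels could be checked in part. Of 6 genes expressed in embryonic stem cells, namely Pou5f1, Sox2, Nanog, Zfp42, Esrrb and Tdgf1, each held at least 2 clusters on its own strand in every line. Of 6 genes of differentiated lineages, Gata6, Pax6, T, Cdx2 and Myod1 held 0 clusters and Sox17 held 1 in every line. Pwwp2a held 2 clusters in E14 and in both clones and Pwwp2b held 0, so cluster positions did not separate knockout from parental cells. Because each line is 1 merged set, no p-value was calculated, and the intervals below cover counting error only.

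Distal clusters came from both strands alike, with 608 plus-strand and 622 minus-strand members in E14. The smallest distance to a gene was 10003 bp and the largest among clusters just left out was 9984 bp. The distance had a median of 21.7 kb (quartiles 14.2 and 40.7) and reached 457 kb. To the nearest protein-coding gene the median was 41.0 kb, and 361 clusters (29.3%, 26.9 to 32.0) lay over 100 kb from any. The nearest gene was protein-coding for 421 clusters, a lincRNA for 217 and of another type, such as a pseudogene, for 592. With respect to the nearest protein-coding gene, 344 clusters lay upstream on its strand and 265 upstream on the opposite strand. Downstream of it lay 280 on its strand and 341 on the opposite strand. The clusters therefore did not lie mainly on one side of that gene. A second annotation places genes at some of them: 149 of the 1230 lay inside a RefSeq gene, 97 in lncRNA genes and 46 in protein-coding ones.

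Sequence could be read for the few distal clusters that fall in a promoter window of RefSeq (GRCm38.p6, 250 bases before to 50 after an annotated start). These were 27 of 1230 E14 clusters, or 2.20%, so that they do not stand for the rest. In 11 of the 27 the dominant TSS was within 10 bp of the RefSeq start. The 6 below were chosen to show wide and narrow clusters at such starts and the related runs. Each is 81 bases, with 50 before the dominant TSS and 30 after it, and the capitals mark the base before the TSS and the TSS itself.
Gm42000, lncRNA, chr3:15056052-15056132, plus strand: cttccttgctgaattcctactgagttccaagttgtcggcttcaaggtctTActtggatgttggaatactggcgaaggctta
Gm33302, lncRNA, chr9:97275689-97275769, plus strand: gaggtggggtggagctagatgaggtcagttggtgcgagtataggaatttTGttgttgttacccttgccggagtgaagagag
Gm52717, lncRNA, chr4:32160873-32160953, minus strand: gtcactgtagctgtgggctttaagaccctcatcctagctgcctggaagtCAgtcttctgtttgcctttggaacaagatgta
AB010352, protein-coding, chr5:109866669-109866749, plus strand: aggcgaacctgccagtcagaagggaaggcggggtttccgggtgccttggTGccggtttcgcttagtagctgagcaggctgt
Gm40035, protein-coding, chr2:181953154-181953234, minus strand: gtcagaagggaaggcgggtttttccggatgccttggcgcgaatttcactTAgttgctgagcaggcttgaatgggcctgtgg
Gm9631, protein-coding, chr11:121925297-121925377, minus strand: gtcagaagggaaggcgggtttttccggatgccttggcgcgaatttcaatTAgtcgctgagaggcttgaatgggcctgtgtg

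In all 6 the pair at the TSS was a pyrimidine followed by a purine, the step that most RNA polymerase II initiation uses. Of the 11 clusters from which the 6 were chosen, 9 had it. Over the 27 clusters it was present in 17 (63.0%, 44.2 to 78.5), against 82.4% of 8417 E14 clusters at coding promoters that fall in the same windows. The interquantile width, the span that holds the start signal between quantiles 0.1 and 0.9, was 30 bp at Gm42000, 40 bp at Gm33302 and 49 bp at AB010352. At Gm52717 it was 2 bp, at Gm40035 14 bp and at Gm9631 21 bp. The dominant TSS of each of the 6 was the same base in E14, A1 and C7, which held for 10 of the 11. The runs at Gm40035 and Gm9631 shared 47 bases without a break and had the same base at 65 of 81 positions, although they lie on different chromosomes, and AB010352 shared a run of 18 bases with each. Clusters at such alike sequences rest on reads that the authors kept as unique alignments.

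Distal clusters were narrow. The median interquantile width was 5 bp in each line, with quartiles of 2 and 16 bp. For intergenic clusters within 10 kb of a gene the median was 6 bp in each line. These leave out clusters within 500 bp of a coding transcript start on the same strand, here called coding promoter clusters. At those coding promoters the median was 21 bp for E14 and 22 bp for each clone. In E14, 348 distal clusters (28.3%, 25.9 to 30.9) were at most 2 bp wide, against 22.9% of the nearer intergenic and 8.44% of the promoter clusters. Over 10 bp were 34.2%, 39.7% and 68.3% of the 3 kinds. By chromosome, with the autosomes and X counted and Y left out, the median of distal clusters was below that of promoter clusters on 20 of 20 in every line. Against the nearer intergenic clusters it was lower on 15, 16 and 15 of 20 in E14, A1 and C7, and it was higher on 3, 4 and 5.

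**Figure D1:**
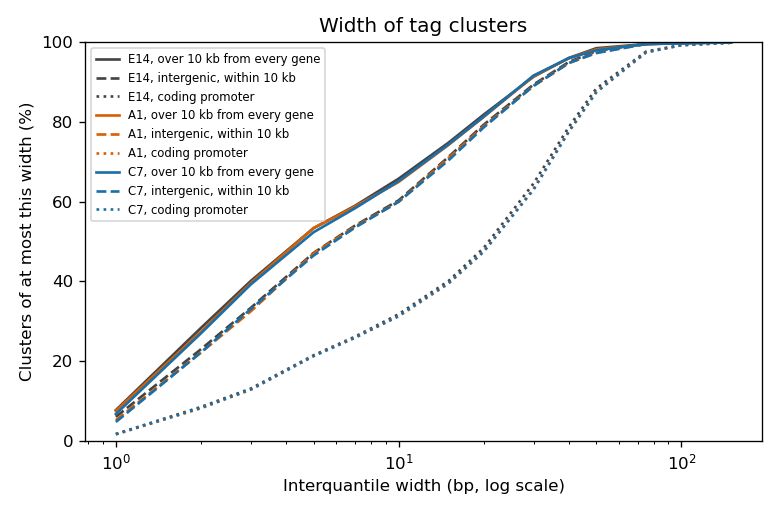
Cumulative share of tag clusters (y axis, percent) by interquantile width (x axis, bp, log scale), for 3 kinds of cluster (line style) in 3 lines (colour). The curves of the lines lie on each other, and distal clusters are narrower than coding promoter clusters, with E14 medians of 5 and 21 bp.

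A small number of distal clusters were broad. A width of at least 50 bp was reached by 20 clusters of E14 (1.63%), 23 of A1 and 25 of C7, against 12.3% of promoter clusters in E14. The widest, chr3:5860558-5860736 on the plus strand, was 149 bp in all 3 lines with the dominant TSS at 5860719. A second broad cluster lay beside it on the same strand, chr3:5860405-5860502, 85 bp wide in all 3 lines. Both were over 100 kb from a protein-coding gene. The others among the 5 widest were 102 bp on chromosome 6 between Slco1c1 and Slco1b2, which code for transporters of thyroid hormone and organic anions, 100 bp on chromosome 18 near Zfp532, and 80 bp on chromosome 11 between Meis1, a homeobox factor, and Spred2, an inhibitor of Ras signalling. Their widths differed by at most 1 bp between lines and each had the same dominant TSS in all 3.

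The 5 clusters farthest from any gene lay 365 to 457 kb away. The farthest, chr11:13615069-13615087 between Cobl and Pom121l12, was 19 bp wide in E14 and A1 and 1 bp in C7, with the dominant TSS at 13615087 in all 3. The others lay between Cdh2 and Dsc3 on chromosome 18, Ankrd7 and Kcnd2 on chromosome 6, Kcnv1 and Csmd3 on chromosome 15, and Csmd1 and Mcph1 on chromosome 8, and were 2, 18, 13 and 4 bp wide in E14. The nearer protein-coding gene was 1243, 1027, 475.8 and 373.8 kb away in that order. Each cluster was present in both clones.

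A partner on the opposite strand was common. In E14 241 distal clusters (19.6%, 17.5 to 21.9) had the dominant TSS of another distal cluster within 1 kb on the other strand. In A1 it was 244 (19.3%) and in C7 234 (19.3%), so the lines differed by less than the interval. In E14 the nearest partner was divergent, with the minus-strand TSS at the lower coordinate, for 152 (63.1%, 56.8 to 68.9), at a median distance of 226.5 bp (quartiles 132 and 423). It was convergent for the other 89, at a median of 209 bp. Paired clusters were wider, with a median of 9 bp against 4 bp for unpaired ones in every line.

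How the share compares with intergenic clusters within 10 kb of a gene depends on which partners are allowed. When partners had to be of the same kind, 14.3% (13.0 to 15.7) of those clusters were paired in E14, below the distal share. Without the largest distal locus, on chromosome Y, the E14 distal share was 17.1% (15.1 to 19.4), and the intervals overlapped. When any cluster counted as a partner, promoters included, 42.2% were paired, and the distal number remained 241. The 2 partner rules place the distal share above and below the nearer intergenic one.

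The order of distances was asymmetric. Among E14 pairs of opposite strand within 1 kb, taken from each member in turn, the fullest 100-bp bin held 66 and lay 100 to 200 bp upstream of the cluster, as in divergent initiation. Without the largest locus, on chromosome Y, that bin held 58 and the bin 100 to 200 bp downstream 16. On the same strand, neighbours were most frequent within 100 bp. The part that the splitting of adjacent TSSs into clusters has in the same-strand counts was not tested.

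**Figure D2:**
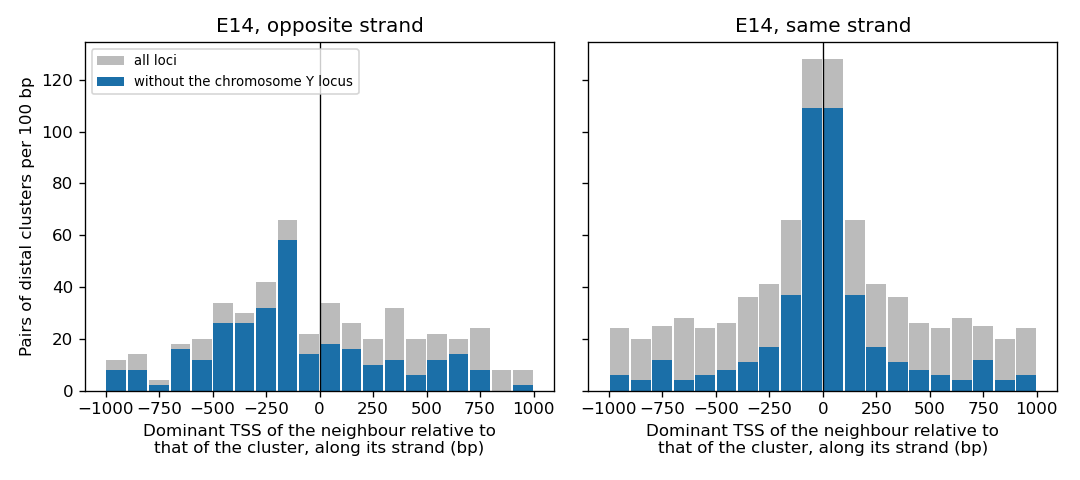
Number of ordered pairs of distal E14 clusters per 100 bp (y axis) by position of the neighbour's dominant TSS along the strand of the cluster (x axis, bp; negative is upstream), for all loci (grey) and without the chromosome Y locus (blue). Opposite-strand neighbours pile up upstream, with 66 pairs from 100 to 200 bp upstream over all loci.

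Of the 130 plus-strand distal E14 clusters with a partner, 124 (95.4%) had both members in A1 and in C7, and 52 kept the same distance between dominant TSSs in all 3 lines. By the naming rule, the 5 tightest divergent pairs at least 3 bp wide on both strands, taken from 63 such pairs found in all lines, spanned 30 to 84 bp. On chromosome 9 between Tln2, which codes for a talin of cell adhesions, and C2cd4b, the minus cluster chr9:67633978-67634063 was 72 bp wide and lay 35 bp from the plus cluster chr9:67634069-67634085, at 35 bp in A1 and C7 too. On chromosome 8 between Gm10638 and N4bp1 a pair was 56 bp apart in all 3 lines. On chromosome 3 between Car2, a carbonic anhydrase, and Gm9733, a pair was 75 bp apart in E14 and C7 and 67 bp in A1, in the same locus as the Gm42000 start printed above. The last 2 pairs share a minus-strand cluster in the chromosome Y locus, at 30 and 84 bp in E14 and C7 and at 30 and 86 bp in A1.

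Pairs were less frequent far from genes. In E14 139 of 551 clusters 10 to 20 kb from a gene were paired (25.2%, 21.8 to 29.0), 70 of 428 at 20 to 50 kb (16.4%), 28 of 183 at 50 to 100 kb (15.3%) and 4 of 68 beyond 100 kb (5.88%, 2.31 to 14.2). Without the chromosome Y locus the first share was 19.05% (15.9 to 22.7) and the second 17.5%, so the step between them rested on that locus. The interval beyond 100 kb still lay below that of the first bin. Both members of a pair are counted, so the clusters are not independent and these intervals understate the error. Widths moved little over the same bins, with medians of 5, 5, 4 and 4 bp.

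**Figure D3:**
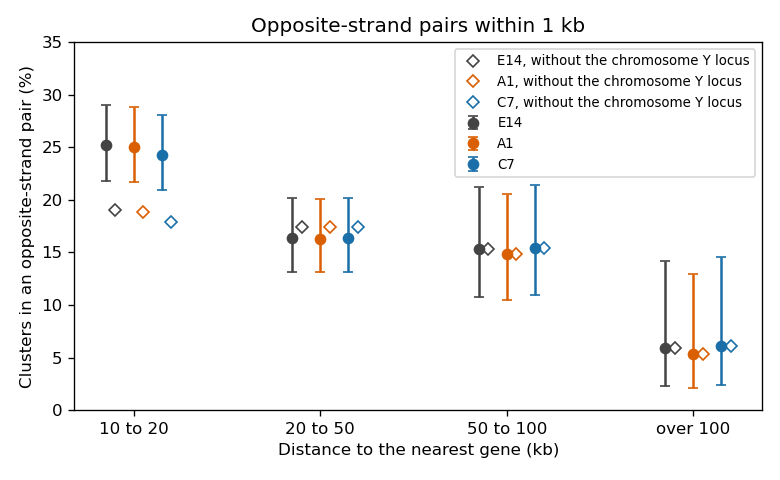
Share of distal clusters in an opposite-strand pair within 1 kb (y axis, percent) by distance to the nearest gene (x axis, kb), per line; filled points have 95% Wilson intervals and open diamonds leave out the chromosome Y locus. Beyond 100 kb the share is 5.88% in E14, 5.33% in A1 and 6.06% in C7.

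Distal clusters lay in groups. In E14 369 of the 1230 (95% interval 27.5% to 32.6%) had another distal cluster of the same strand within 1 kb, and 616 (50.1%, 47.3 to 52.9) had one of either strand within 10 kb. The share within 10 kb was 49.7% in A1 and 50.2% in C7. The clusters of the 3 lines were joined into 1286 consensus clusters by overlap of at least 1 bp on the same strand, and runs of these within 10 kb of the next formed 838 loci. Of the loci 652 (77.8%) were a single cluster, and 23 held at least 5, together 235 consensus clusters (18.3% of all). An E14 pair was present in 68 loci.

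1 locus stood apart. chrY:90717532-90743048, which ends 10.0 kb before the pseudogene Mid1-ps1, held 75 consensus clusters and 74 of the E14 clusters (6.02% of them), 75 in A1 and 73 in C7. Its E14 clusters were 62 of plus and 12 of minus orientation, the median gap between neighbours was 134 bp, and 43 were paired, 14 of them divergent. Chromosome Y as a whole held 84 distal clusters among 216 clusters (38.9%), against 1.70% to 7.17% on the other chromosomes. Without the locus 198 of 1156 E14 clusters were paired (17.1%, 15.1 to 19.4), and 138 of these (69.7%, 63.0 to 75.7) were divergent. The share in A1 was then 16.9% and in C7 16.7%.

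The other 4 of the 5 largest loci held 9 to 17 consensus clusters. On chromosome 5, between Nkx1-1, a homeobox gene, and Fam53a, 17 clusters spread over 38.3 kb, 16 of them on the minus strand, and all 17 were found in every line. On chromosome 17, between Mtcl1, which codes for a microtubule cross-linking protein, and Rab12, a small GTPase, 10 clusters spanned 10.95 kb, and 7 of the 10 in E14 were in divergent pairs. On chromosome 19, between Trpm3, a cation channel, and Klf9, a zinc finger transcription factor, 10 clusters spanned 6.23 kb with 5 on each strand, and all 10 in E14 had an opposite-strand partner, 4 of them divergent. On chromosome 6, between Slco1c1 and Slco1b2, the 9 clusters were all on the minus strand, none was paired, and 8 were found in every line. The locus upstream of Mir290a also held 9, and the tie was settled by chromosome order. Large loci thus included groups on both strands and groups on a single strand.

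The loci could be set beside a list of 29 genes of the pluripotency network, and a list of 29 genes of differentiated lineages. Within 100 kb of the gene, 12 of the 29 pluripotency genes (41.4%), 4 of the 29 lineage genes (13.8%) and 1376 of 21938 protein-coding genes (6.27%) had at least 1 distal consensus cluster. Within 200 kb the counts were 14 and 4 of 29 and 2550 (11.6%). The lists were chosen with results of these data known, and a gene in a gene-poor region has more room for a distal cluster, so these shares are descriptions. The pluripotency genes had 31 distal consensus clusters and the lineage genes 6, a cluster near 2 listed genes being counted once.

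Upstream of Mir290a, the first gene of a microRNA cluster abundant in embryonic stem cells, 8 distal clusters lay in E14, 8 in A1 and 9 in C7, at 11.7 to 25.2 kb before the gene. Among them, the minus-strand TSS 3201223 and the plus-strand TSS 3201503 of chromosome 7 were divergent at 280 bp in all 3 lines. A second pair, the minus-strand TSS 3204006 and the plus-strand TSS 3204015, was divergent at 9 bp in all 3 lines. The cluster nearest the gene was the widest of them, at 21 bp.

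Around Zfp42, also called Rex1, a marker of the naive state, 6 distal clusters lay in E14, 7 in A1 and 6 in C7. A divergent pair stood upstream, with the minus-strand TSS 43320599 of chromosome 8 at 13.6 kb and the plus-strand TSS 43321180 at 14.2 kb from the gene, 581 bp apart in all 3 lines and 19 and 17 bp wide in E14. The cluster found only in A1, at 13.8 kb on the minus strand, was 1 bp wide and lay nearer to that plus-strand TSS than the named partner.

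At Prdm14, which codes for a transcriptional regulator of the naive state, a divergent pair lay downstream, with its minus-strand TSS 13094762 of chromosome 1 at 18.7 kb and its plus-strand TSS 13095750 at 17.7 kb, 988 bp apart in E14 and A1 and 989 bp in C7. A further plus-strand cluster, 1 bp wide at 13094905, was present in E14 only. It was divergent at 143 bp from the same minus-strand TSS, and so was the nearest partner of that TSS in E14. At Klf5, a pluripotency factor of the Kruppel-like family, the 41-bp plus-strand cluster at 24.1 kb downstream and the 2-bp minus-strand cluster at 24.7 kb were convergent, 562 bp apart in every line.

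The remaining pluripotency genes with a distal cluster within 100 kb had only unpaired ones. Klf2 had 2 clusters, 47.7 and 50.4 kb upstream, and Klf4 had 1, 46.9 kb downstream. Tbx3 had 3, from 26.2 to 49.7 kb downstream, the farthest of which was missing from C7. Tfcp2l1 had 1 at 91.6 kb downstream. Nanog and Dppa3 are neighbours and shared 2 clusters, one of 4 bp in all lines and one of 1 bp in A1 only. Lefty1 and Lefty2, inhibitors of Nodal signalling, shared 1 of 11 bp, 10.3 kb before Lefty1. In the lineage list, Sox1 had 3 clusters, of which the minus-strand TSS 12485460 and the plus-strand TSS 12485595 of chromosome 8 were divergent at 135 bp in E14 and C7 and at 141 bp in A1, while Olig2, T and Pax7 had 1 each.

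2 genes are described with the 200-kb window, which was chosen after values were seen. Sox2 is on the pluripotency list, and Sall1 was added after its values were seen. Sox2, which codes for a core pluripotency factor and is known to have a strong distal enhancer downstream in embryonic stem cells, had no distal cluster within 100 kb and 5 from 105.4 to 107.6 kb downstream in every line. All 5 were on the minus strand, opposite to Sox2, and 5 to 27 bp wide, so that none had an opposite-strand distal partner. Sall1, which codes for a zinc finger transcription factor and is on neither list, had 14 distal clusters within 200 kb in E14, 15 in A1 and 14 in C7. A locus 14.6 kb past its 3' end held 7 in E14, of which 5 were in divergent pairs, and a locus 75.5 kb past it held 5, all paired and 4 of them divergent. In the farther locus the minus-strand TSS 88950119 and the plus-strand TSS 88950265 of chromosome 8 were 146 bp apart in all 3 lines.

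**Figure D4:**
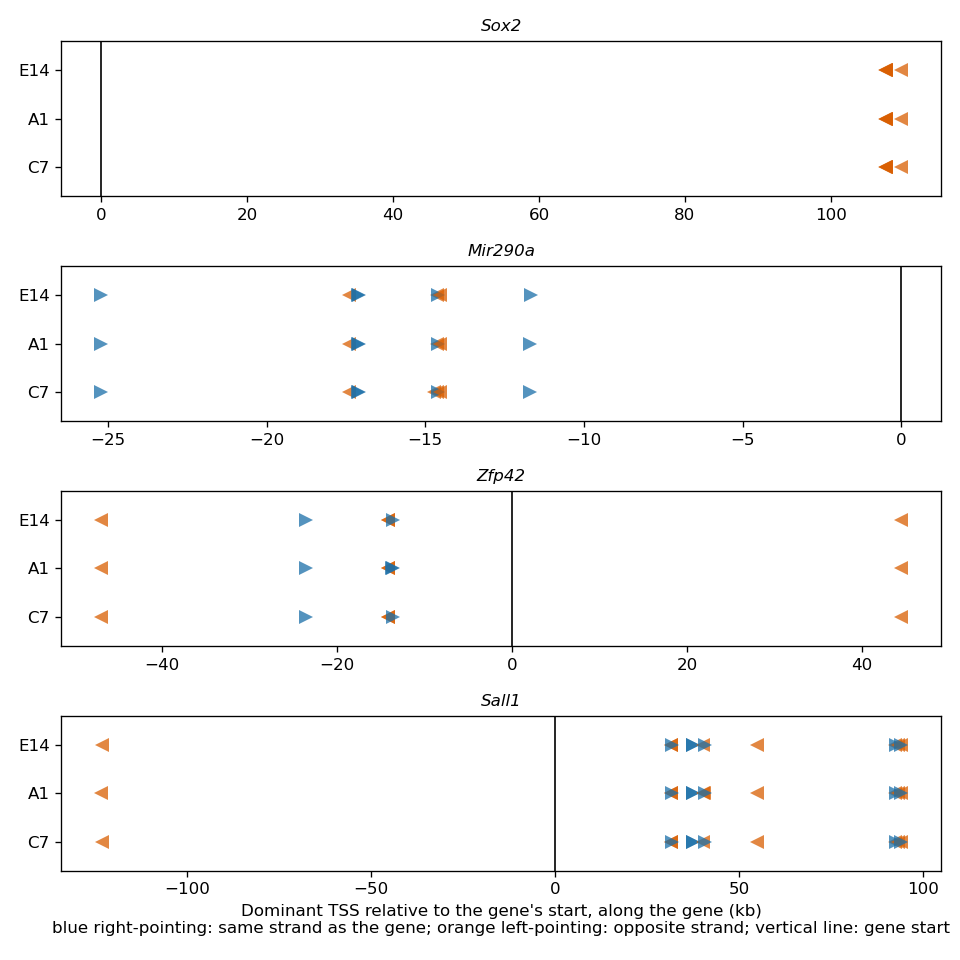
Dominant TSSs of distal clusters near Sox2, Mir290a, Zfp42 and Sall1 (x axis, kb from the start of the gene, positive along the gene) in E14, A1 and C7 (rows); the direction of each marker gives the strand relative to the gene. Near Sox2 all 5 clusters are on the opposite strand, and the positions are alike in the 3 lines except for single clusters of A1 and C7.

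Most distal clusters were shared by the 3 lines. Of the 1286 consensus clusters 1180 (91.8%, 90.1 to 93.1) were found in all lines, against 97.4% of all clusters off the mitochondrial chromosome and 95.3% of intergenic clusters within 10 kb of a gene. Both clones but not E14 had 12 (0.933%, 0.535 to 1.62), where all clusters gave 0.443%. E14 alone had 4 (0.311%, 0.121 to 0.797; all clusters 0.229%). A1 alone had 36 (2.80%, 2.03 to 3.85; all clusters 0.653%) and C7 alone 7 (0.544%, 0.264 to 1.12; all clusters 0.322%). E14 and A1 but not C7 had 33 (2.57%, 1.83 to 3.58; all clusters 0.512%), and E14 and C7 but not A1 had 14 (1.09%, 0.650 to 1.82; all clusters 0.473%). For clusters missing from at least 1 line, the interval lay above the share of all clusters except for E14 alone and C7 alone. Among intergenic clusters within 10 kb of a gene, A1 alone had 1.38% and E14 and A1 1.09%, both below the distal interval. The nearer shares lay inside it for both clones and not E14 (0.673%) and for E14 alone (0.524%). They also lay inside it for C7 alone (0.374%) and for E14 and C7 (0.673%). The part of depth in these shares was not tested.

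**Figure D5:**
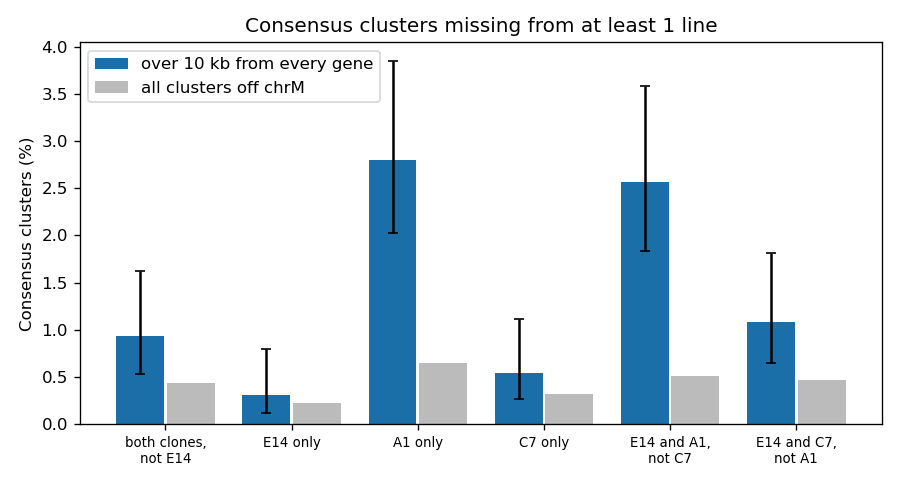
Share of consensus clusters (y axis, percent) missing from at least 1 line, by the lines that hold them (x axis), for distal clusters (blue, with 95% Wilson intervals) and for all clusters off the mitochondrial chromosome (grey). A1-only clusters are 2.80% of distal and 0.653% of all clusters.

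Clusters found in some lines only were narrow, with a median interquantile width of 1 bp in each of these groups except that of E14 and A1, where it was 2 bp. The 5 widest of both clones and not E14 were 12, 3, 2, 2 and 2 bp. The widest, chr8:65209168-65209179 on the plus strand, was 12 bp in A1 and in C7, and lay 79616 bp from BC030870. The next was the plus-strand cluster chr6:42130004-42130006, 10931 bp from the taste receptor gene Tas2r139 and 3 bp wide in A1 and 2 bp in C7. All 4 E14-only clusters were 1 bp wide, the one downstream of Prdm14 among them, and the others lay on chromosomes 3, 6 and Y. Against E14, A1 held 48 distal clusters that E14 lacked (3.73%, 2.83 to 4.91; all clusters 1.10%) and was without 18 that E14 held (1.40%, 0.887 to 2.20; all clusters 0.702%). C7 held 19 that E14 lacked (1.48%, 0.948 to 2.30; all clusters 0.765%) and was without 37 (2.88%, 2.09 to 3.94; all clusters 0.741%). The difference between the clones was not tested.

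Counting a shift of any size, the dominant TSS of shared distal clusters moved about as often as that of all clusters. Over the 1178 compared, which had exactly 1 cluster in each line, the dominant TSS of A1 differed from that of E14 in 279 (23.7%, 21.3 to 26.2; all clusters 23.8%). In C7 it differed in 259 (22.0%, 19.7 to 24.4; all clusters 21.1%). It moved to the same base in both clones in 112 (9.51%, 7.96 to 11.3; all clusters 8.48%). The interquantile region was wider in both clones in 109 (9.25%, 7.73 to 11.04; all clusters 12.5%) and narrower in both in 34 (2.89%, 2.07 to 4.01; all clusters 3.95%). The background lay inside the interval for starts moved by any distance and for narrower regions, and above it for wider regions. For starts moved over 5 bp it lay above the interval in A1 (11.69% against 8.27 to 11.68) and C7 (10.41% against 6.87 to 10.04). For starts moved over 10 bp it lay above the interval in A1 and inside it in C7. The part of cluster width in these shifts was not tested. Intergenic clusters within 10 kb of a gene had 8.60% wider and 2.51% narrower in both clones, which is as low as in distal clusters or lower. The width was the same in all lines for 793 (67.3%), and the outer start and end were the same for 1149 (97.5%). Whether the bounds were set once for the lines together is not given in the sources used here, and bounds that are shared this often limit what presence and outer width can show.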

How the data were processed

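Nuclear RNA CAGE-seq of 3 E14, 2 A1 and 3 C7 libraries was used. The authors mapped reads to mm10 (STAR 2.4.2a, SAMtools 1.3 and bedtools 2.17.0 are named in the submitters' processing notes), retained reads aligning once, pooled the libraries per line and used CAGEr for tag clusters. The deposited score is 0 for every cluster, so no level was used. The deposited positions are those of each cluster, of its dominant TSS and of its interquantile span, which is drawn as blocks. Clusters were annotated with GENCODE M21 (55450 genes; the study used the next release) and counted in Python 3.11.15 (NumPy 2.4.6, SciPy 1.17.1, Matplotlib 3.10.9 for figures). Unique alignment drops reads that fit several copies of a repeat. 6 clusters with 4 blocks, none of them distal, took their whole width. The functions were tested on simulated clusters and recovered 1000 of 1000 distal calls, 1000 of 1000 pairs and 1000 of 1000 overlaps. The members and lists were chosen with earlier results of these data known. Named by rule were the 5 largest loci, the 5 widest and 5 farthest E14 clusters, the 5 tightest divergent pairs (at least 3 bp wide on both strands, in all lines), the 5 widest line-specific clusters of each kind, and clusters within 100 kb of listed pluripotency genes. Alternatives were other distances, windows, annotations and widths, each clone alone, and, chosen after seeing the data, the chromosome Y locus left out, RefSeq genes and a 200-kb window. GC content, repeats and sequence outside RefSeq promoter windows were not analysed here.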

Additional observations from a re-analysis of the deposited data

Results flagged for a closer look

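The clones differed in opposite directions in distal clusters gained minus lost against E14: over consensus clusters the balance was 30 in A1 (48 gained, 18 lost) and -18 in C7 (19 gained, 37 lost). Each clone is 1 merged set, so the difference was not tested. Over all clusters the balances were 131 and 8. Read depth differs between the lines, with A1 the least deeply read, and its part in the result was not tested.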

How the results depend on the processing

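No paired analysis was possible because the authors merged the replicates of each line before deposit, and for the same reason no replicate could be left out. Without levels, clusters near the caller's limit cannot be weighed. Of the values recomputed, 63 moved by less than their interval or factor and 55 by more. Gained against lost clusters turned direction, from 12 against 4 for both clones to 19 against 37 with C7 alone, and the cause was not tested. These are unlike counts: the 4 were absent from both clones, and the 37 include 33 that A1 held. Over all clusters the counts were 147 against 76 for both clones and 254 against 246 with C7 alone. In each series of values below, E14 comes first, then A1, then C7. The number of distal clusters was 679, 699 and 663 over 20 kb, 251, 264 and 247 over 50 kb, and 2898, 2931 and 2856 with protein-coding genes only. The median width was 9, 10 and 9 bp with a minimum of 3 bp, and 6 bp in every line with protein-coding genes only and for whole clusters. The paired share was 15.9%, 15.7% and 15.7% within 500 bp, 22.4%, 22.1% and 22.1% within 2 kb, 13.98%, 13.8% and 13.7% for divergent pairs, 14.9%, 14.6% and 14.9% over 20 kb, 12.7%, 12.1% and 13.0% over 50 kb, and 17.1%, 16.9% and 16.7% without the chromosome Y locus. The share with a neighbour was 47.0%, 46.7% and 47.0% within 5 kb, 53.3%, 53.0% and 53.0% within 20 kb, and 46.9%, 46.5% and 47.0% without that locus. Clusters gained against E14 numbered 48 in A1 alone (3.73%, all clusters 1.10%) and 19 in C7 alone (1.48%, all clusters 0.765%). In both clones they numbered 4 over 50 kb and 2 at a minimum of 3 bp. Those lost numbered 18 against A1 alone (1.40%, all clusters 0.702%) and 37 against C7 alone (2.88%, all clusters 0.741%). E14-only clusters numbered 7 over 5 kb, 1 over 50 kb and 0 at a minimum of 3 bp. The E14 set itself was 1760 clusters over 5 kb, 251 over 50 kb and 882 at a minimum of 3 bp. No share of all clusters is given at these settings, so these counts cannot be set against a background. Dominant TSSs moved by over 5 bp in 9.85% (A1) and 8.32% (C7), against 11.69% and 10.41% of all clusters. They moved by over 10 bp in 5.86% and 5.60%, against 7.52% and 6.79% of all clusters.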
